A study of Mus musculus with 16 samples.

Results

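The 9 genes described here encode receptors that mark mitochondria for removal and mitochondrial proteins that respond to low oxygen: Bnip3, Bnip3l, Fundc1, Pink1, Mgarp, Higd1a, Ndufa4l2, Cox4i1 and Cox4i2. They were taken by symbol from the 25719 genes counted in each library, and all 9 were found. RNA was sequenced from tail tendon fascicles, the collagen-rich strands of the mouse tail, in 8 libraries labelled wild type and 8 labelled knockout. Knockout mice had the genotype written ScxCre;Vhlf/f: floxed Vhl, and a Cre driven by Scx, a gene of tendon cells. Whether the wild type mice carried Cre or floxed alleles is not given in the sources used here, nor are age, sex or whether each library came from a separate mouse, so p-values measure the spread between these libraries. Every cell of the dissected strands entered a library, among them cells outside the Scx lineage. In such bulk samples fewer cells of a type and less RNA per cell cannot be told apart.

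Vhl is the substrate-recognition part of a ubiquitin ligase that destroys the alpha subunits of the hypoxia-inducible factors (HIF) when oxygen is present. Without it HIF stays active and raises a set of mitochondrial genes. Mitophagy is the selective engulfment of mitochondria by autophagosomes, either through receptors in the outer membrane that bind the autophagosome coat (BNIP3, BNIP3L, also called NIX, and FUNDC1) or through the kinase PINK1, which accumulates on damaged mitochondria and starts their tagging with ubiquitin. In cells at low oxygen HIF is also known to exchange subunits of the respiratory chain for paralogues, replacing COX4I1 by COX4I2 in complex IV, the cytochrome c oxidase. Tendon cells sit in a poorly vascularised matrix and are known for a low respiratory rate.

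Wild type libraries held 10792900 to 16379401 counts each, knockout libraries 10488355 to 18753254. Levels are CPM, counts scaled to a common library size, after normalisation by the trimmed mean of M-values (TMM). Vhl averaged 20.5 ± 3.69 CPM in wild type libraries (lowest 14.1) and 9.35 ± 1.25 CPM in knockout libraries (highest 10.9, SD, n = 8), so the groups followed their labels. Skeletal muscle RNA varied widely within both genotypes: the mean log2 CPM of 15 muscle markers, here called the muscle score, spanned 0.55 to 8.00 across wild type libraries and 3.02 to 8.82 across knockout libraries. Fold changes are given as log2, knockout over wild type, from edgeR's quasi-likelihood test with Benjamini-Hochberg adjustment over all 14803 tested genes.

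Of the 9 genes, 6 were higher in the knockout, 1 was lower and 2 did not pass the threshold (adjusted p under 0.05). Over all tested genes 48.3% passed, 25.6% higher and 22.7% lower. For 7 of the 9 genes the ranges of both genotypes were apart, which held for 19.4% of all tested genes. All 9 passed the filter on low counts, Mgarp through its knockout libraries alone, so that Mgarp could enter the test only by being higher there and its place among the 6 is a description.

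Promoter sequence is shown for the members with bases before every annotated start in their RefSeq window (GRCm38.p6), because HIF is known to bind the core letters ACGTG and the variant that reads GCGTG, and these genes moved in different directions. The RefSeq table held windows for 5 of the 9 members: Bnip3, Fundc1, Pink1, Mgarp and Higd1a. Only bases before both the RefSeq start and every start annotated in GENCODE M21 are printed, 5′ to 3′ on the strand of the gene. Capitals mark either core on either strand. The stretches are chr7:138909520-138909756 on the minus strand for Bnip3, chr3:51396739-51396797 on the minus strand for Mgarp and chr4:138326308-138326546 on the minus strand for Pink1.
Bnip3: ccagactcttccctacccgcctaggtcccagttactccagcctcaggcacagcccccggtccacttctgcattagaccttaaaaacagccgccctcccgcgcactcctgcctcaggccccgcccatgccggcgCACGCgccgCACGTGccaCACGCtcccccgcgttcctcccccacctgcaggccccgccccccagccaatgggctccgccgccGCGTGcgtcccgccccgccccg
Mgarp: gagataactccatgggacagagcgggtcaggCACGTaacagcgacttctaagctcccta
Pink1: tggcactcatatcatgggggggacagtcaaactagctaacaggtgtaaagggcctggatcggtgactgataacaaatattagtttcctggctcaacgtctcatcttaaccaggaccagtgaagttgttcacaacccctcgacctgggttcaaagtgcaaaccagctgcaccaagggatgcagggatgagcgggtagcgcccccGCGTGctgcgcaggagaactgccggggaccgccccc
In the 250 bases before the RefSeq start, Bnip3 had 5 matches, of which 2 overlap in a palindrome 108 bases before the start. Mgarp had 1 and Pink1 had 1. Fundc1 had 0 and Higd1a 2, in windows that lie within the annotated gene and are not printed. Of all 32851 RefSeq windows of that length, 38.6% held at least 1 match and 1.0% held at least 5. The matches are letters in a window and do not show binding.

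BNIP3 and BNIP3L are related outer-membrane receptors that tether mitochondria to the autophagosome. Bnip3 was measured at 361, 435 and 561 CPM in the lowest, median and highest knockout library and at 40.4, 49.4 and 64.6 CPM in the wild type. The lowest knockout library thus lay above 5 times the highest wild type library. Its mean rose from 50 ± 9.67 to 443 ± 80 CPM (SD, n = 8), or by 3.15 on the log2 scale (SE 0.133, adjusted p = 4.18e-13). In GENCODE M21 504 of its exon bases lie opposite Gm45507, and whether counting used strand is not given. Bnip3l was measured at 296, 319 and 459 CPM in the lowest, median and highest knockout library and at 109, 121 and 149 CPM in the wild type, again without overlap. It rose from 123 ± 14.2 to 348 ± 62.2 CPM, or by 1.50 on the log2 scale (SE 0.103, adjusted p = 4.19e-10). BNIP3L is known for clearing mitochondria from maturing red cells, and erythroid markers moved the same way: all 5 tested were higher, beside 25.6% of all tested genes, and their score was 1.30 to 2.91 in wild type libraries and 3.48 to 6.07 in knockout libraries. The part of such cells in the Bnip3l difference was not tested. Of the erythroid markers, Hbb-bt was as low as 0.448 CPM in the wild type and needed knockout libraries to pass the filter. Its place among the 5 is a description.

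The pair changed its order. Per length of the principal transcript in GENCODE M21, Bnip3 made up 42.5% ± 3.56 of the sum of both genes in wild type libraries and 70.1% ± 1.56 in knockout libraries (SD, n = 8). No knockout library was under 68.2% and no wild type library over 50.1%. The log2 ratio of Bnip3 to Bnip3l within each library, in which library scaling cancels, was higher by 1.66 in the knockout (exact permutation test, two-sided, n = 8, p = 1.55e-04, the smallest value 8 against 8 libraries can give). Ratios of 5 pairs were tested in this way and all gave that p, so the value adjusted over the 5 is the same. The pair with Mgarp, given below, is a description.

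The other 2 mitophagy genes did not rise. PINK1 is the kinase that starts ubiquitin-dependent mitophagy, and its transcript fell. Pink1 was measured at 143, 199 and 223 CPM in the lowest, median and highest knockout library and at 238, 289 and 356 CPM in the wild type. Every wild type library lay above every knockout library, with means of 294 ± 45.5 and 191 ± 25.8 CPM (SD, n = 8). The log2 fold change was -0.62 (SE 0.102, adjusted p = 4.88e-05). Scaling to total counts alone, which moved the median of all genes from 0.02 to 0.32, brought Pink1 to -0.32 (adjusted p = 0.0241), still lower.

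FUNDC1 is an outer-membrane receptor whose activity in low oxygen is known to be set by phosphorylation. Fundc1 was measured at 16.3, 19.3 and 22.8 CPM in the lowest, median and highest knockout library and at 17.9, 22 and 28.3 CPM in the wild type. The groups overlapped between 17.9 and 22.8 CPM. The log2 difference was -0.19 (95% interval -0.38 to 0.01, adjusted p = 0.112), and it changed sign with total counts, to 0.10 (adjusted p = 0.443). Its paralogue Fundc2 was lower, at 32.1 ± 3.81 against 46.2 ± 4.21 CPM (log2 fold change -0.53, adjusted p = 1.54e-05), and missed the threshold with total counts at -0.23 (adjusted p = 0.0535).

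**Figure D1:**
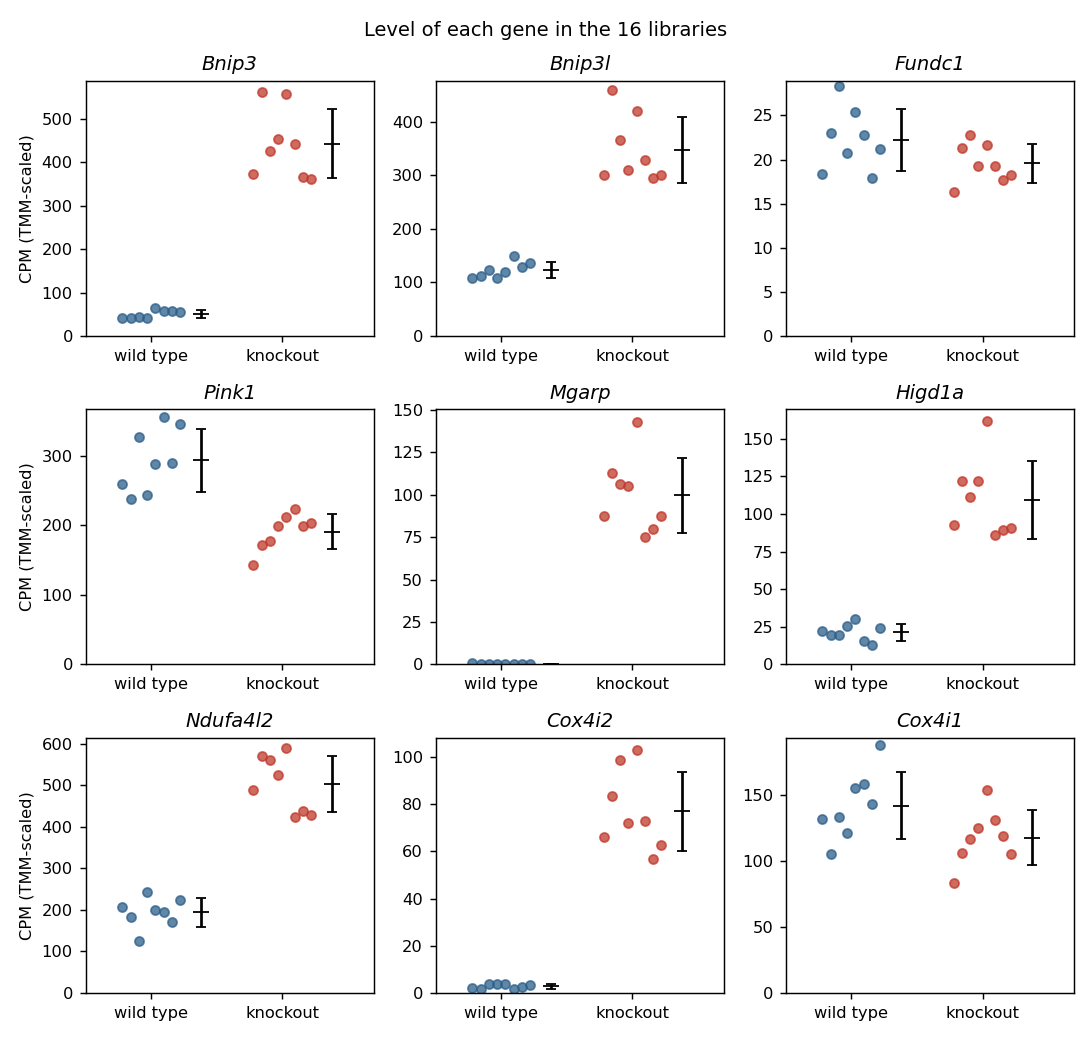
CPM of each of the 9 genes (vertical axes, each from 0) in 8 wild type (blue) and 8 knockout (red) libraries, with mean and SD in black. The groups are apart for all genes but Fundc1 and Cox4i1, and Mgarp is at most 0.561 CPM in the wild type.

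MGARP is a HIF-induced mitochondrial protein that links mitochondria to the carriers of microtubule transport. Mgarp had the largest difference of the 9 and the seventh largest increase of all tested genes. It was measured at 75, 96.3 and 143 CPM in the lowest, median and highest knockout library. In the wild type 3 libraries had no count, 7 had at most 3 counts and the highest had 5. Summed over libraries, 12004 counts stood against 13, a ratio of 703 after scaling (95% interval 411 to 1320 from the exact Poisson interval of the 13 counts, for counting error only). The fitted log2 fold change of 9.36 depends on the small count added to the wild type and is no bound. TRAK1, an adaptor between mitochondria and kinesin, rose with it: Trak1 was at 78.8, 101 and 116 CPM in the lowest, median and highest knockout library and at 54.1, 67.7 and 79.4 CPM in wild type libraries (log2 fold change 0.61, adjusted p = 1.19e-05). It lost the threshold with the pericyte and smooth muscle score described further on as a covariate. Its paralogue Trak2 fell, from 125 ± 12.2 to 87.4 ± 6.46 CPM (-0.52, adjusted p = 2.16e-06). The log2 ratio of Mgarp to Trak1 was higher by 7.92 in the knockout. With at most 5 Mgarp counts in any wild type library, this ratio restates the Mgarp difference and is a description. Its size depends on the count added to Mgarp before the log, and ran from 6.98 with an added count of 5 to 9.05 with 0.5.

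HIGD1A is a small inner-membrane protein induced by hypoxia that interacts with complex IV. Higd1a was measured at 85.9, 102 and 162 CPM in the lowest, median and highest knockout library and at 13.1, 20.9 and 30.0 CPM in the wild type, without overlap. It rose from 21.3 ± 5.46 to 110 ± 25.9 CPM (SD, n = 8), or by 2.36 on the log2 scale (SE 0.169, adjusted p = 2.69e-09). Of its exon bases 683 lie opposite Gm47112, so its counts are uncertain to that extent. Higd2a, a relative of the same domain family, differed by -0.13 (95% interval -0.35 to 0.08, adjusted p = 0.281). The log2 ratio of Higd1a to Higd2a was higher by 2.50 in the knockout (exact permutation test, n = 8, p = 1.55e-04). The relatives Higd1b and Higd1c were below the filter, with 192 and 11 counts over all libraries. Of the Higd1b counts 176 were in knockout and 16 in wild type libraries, a difference that was not tested.

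NDUFA4L2 is a HIF target known to lower mitochondrial oxygen use, and NDUFA4 is its paralogue in complex IV. Ndufa4l2 was measured at 425, 507 and 591 CPM in the lowest, median and highest knockout library and at 126, 197 and 244 CPM in the wild type. It was already abundant in the wild type, at 194 ± 35.5 CPM, and rose to 503 ± 67.8 CPM without overlap (log2 fold change 1.38, SE 0.116, adjusted p = 7.95e-09). In exons it shares 32 bases with Shmt2 on the other strand, and whether strand was used in counting is not given, so reads there cannot be assigned. Ndufa4 was lower, at 22.3 ± 7.01 against 35.3 ± 11.7 CPM (-0.66, adjusted p = 0.0194), with overlap. Ndufa4 missed the threshold with total counts (-0.37, adjusted p = 0.198). It also missed it without the 2 most muscle-rich libraries of each genotype, where fewer libraries were compared.

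Per length of the principal transcript, Ndufa4l2 made up 78% ± 7.77 of the pair in wild type libraries and 93.5% ± 2.55 in knockout libraries (SD, n = 8). It was the larger part of the pair in every library, down to 62.4% in the lowest wild type library. The log2 ratio of Ndufa4l2 to Ndufa4 was higher by 2.05 in the knockout (exact permutation test, n = 8, p = 1.55e-04).

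COX4I1 and COX4I2 are alternative forms of a regulatory subunit of complex IV. Cox4i2 was measured at 56.6, 72.4 and 103 CPM in the lowest, median and highest knockout library and at 1.59, 2.89 and 3.75 CPM in the wild type. Every wild type library had a low level, from 17 counts up, and the groups were far apart. Cox4i2 rose from 2.75 ± 0.952 to 76.9 ± 16.9 CPM (SD, n = 8), or by 4.80 on the log2 scale (SE 0.2, adjusted p = 1.38e-12), the second largest of the 9. Cox4i1 was measured at 83.6, 118 and 154 CPM in the lowest, median and highest knockout library and at 105, 138 and 188 CPM in the wild type, with wide overlap. Its log2 difference was -0.27 (95% interval -0.52 to -0.02, unadjusted p = 0.0339, adjusted p = 0.0663 with edgeR). It lay close to the threshold: with DESeq2 size factors it passed (-0.28, adjusted p = 0.0493), and with total counts it was at 0.03 (adjusted p = 0.838). It also passed without knockout library 5 (-0.34), wild type library 2 (-0.32) or wild type library 4 (-0.30). Exons of Cox4i1 share 154 bases with Emc8 on the other strand, so its counts are uncertain to that extent.

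Per length of the principal transcript, Cox4i2 made up 2.00% ± 0.703 of both forms in wild type libraries and 40.5% ± 4.86 in knockout libraries (SD, n = 8). Knockout libraries ran from 33.2% to 46.8% and wild type libraries from 1.05% to 3.03%. Cox4i1 remained the more abundant form in every knockout library on this scale. With the length of all annotated exons, which is longer for Cox4i1, the knockout share was 56.1% ± 4.98, so which form was in excess in the knockout depends on the length used. The log2 ratio of Cox4i2 to Cox4i1 was higher by 5.05 in the knockout (exact permutation test, n = 8, p = 1.55e-04), a value that does not depend on length.

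**Figure D2:**
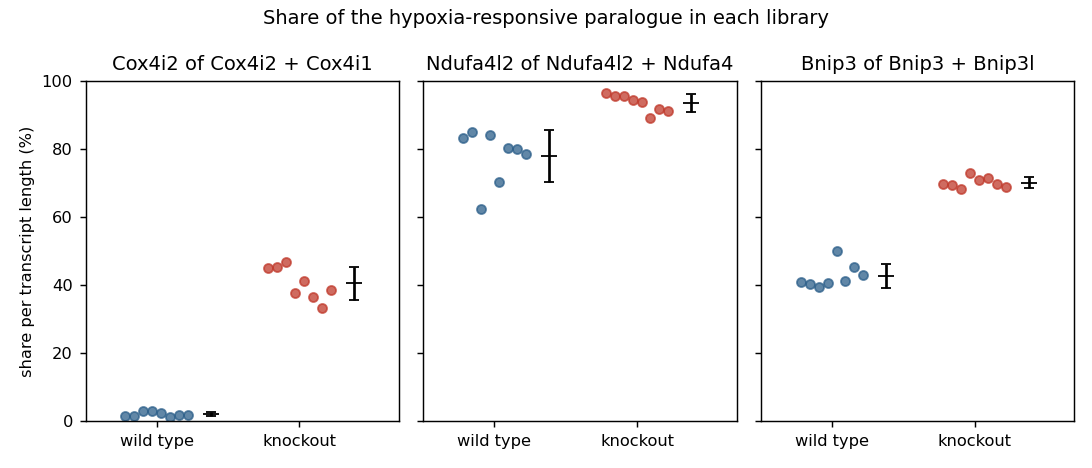
Share of the first gene in the sum of 2 paralogues, in percent per length of the principal transcript, in 8 wild type (blue) and 8 knockout (red) libraries with mean and SD in black. Cox4i2 lies between 1.05% and 3.03% in the wild type and between 33.2% and 46.8% in the knockout, and Bnip3 moves from below to above the middle of the axis in all but the highest wild type library.

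Pericytes of many tissues express Ndufa4l2 and Cox4i2. Of 10 tested pericyte and smooth muscle markers 7 were also higher in the knockout and 1 lower, beside 25.6% and 22.7% of all tested genes. Their score was 1.93 to 4.10 in wild type libraries and 3.92 to 7.22 in knockout libraries. The markers did not move together: Rgs5 averaged 4.53 CPM in wild type and 308 CPM in knockout libraries, whereas Cspg4 was lower (-0.27, adjusted p = 0.0319) and Pdgfrb was at -0.20 (adjusted p = 0.279). In a fit with genotype and this score the slopes of Cox4i2 and Ndufa4l2 were -0.122 and -0.0968 log2 units per unit of score (adjusted p = 0.51 and 0.422), and those of the other 7 genes did not pass the threshold. The score differed between genotypes, and the part of such cells in the differences of Cox4i2 and Ndufa4l2 was not tested. Des was on both this list and the muscle list, so both scores share a marker. Knockout libraries 6, 7 and 8 and wild type library 5 were highest in both scores within their genotype. Of 11 endothelial markers tested 9 were higher, beside 25.6% of all tested genes, with scores of 1.03 to 2.04 in wild type and 2.21 to 5.73 in knockout libraries, and their part in these results was not tested. Plvap, among these markers, was at 0.702 CPM or less in every wild type library and passed the filter on low counts through its knockout libraries alone. Pecam1 was as low as 0.253 CPM in the wild type, and the pericyte markers Rgs5 and Abcc9 as low as 0.151 and 0 CPM. The endothelial markers Flt1 and Egfl7 were as low as 0 and 0.759 CPM there. Mcam, Myh11 and Des, of the pericyte and smooth muscle list, were as low as 0.390, 0.579 and 0.151 CPM. These too needed knockout libraries to pass. Such markers could enter the test only by being higher there, so their place in the counts of higher markers is a description. Vwf and Ptprb, as low as 1.01 and 0.983 CPM in the wild type, lay close to the filter.

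Muscle is rich in mitochondria, and the levels of the 9 genes were set against the muscle score in the same way. Of 15 muscle markers 2 were higher and none lower, beside 25.6% and 22.7% of all tested genes. The median muscle score was nevertheless higher in the knockout, at 5.28 against 3.18 in the wild type, with wide overlap between the genotypes. The small number of calls thus does not show that muscle RNA was equal in both genotypes. In a fit with genotype and the muscle score the adjusted p of the slopes of the 9 genes ran from 0.177 to 0.997, which does not show that they were unrelated to it. Without the 2 most muscle-rich libraries of each genotype the log2 fold changes were 3.34 for Bnip3, 1.57 for Bnip3l, -0.65 for Pink1 and 4.97 for Cox4i2.

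**Figure D3:**
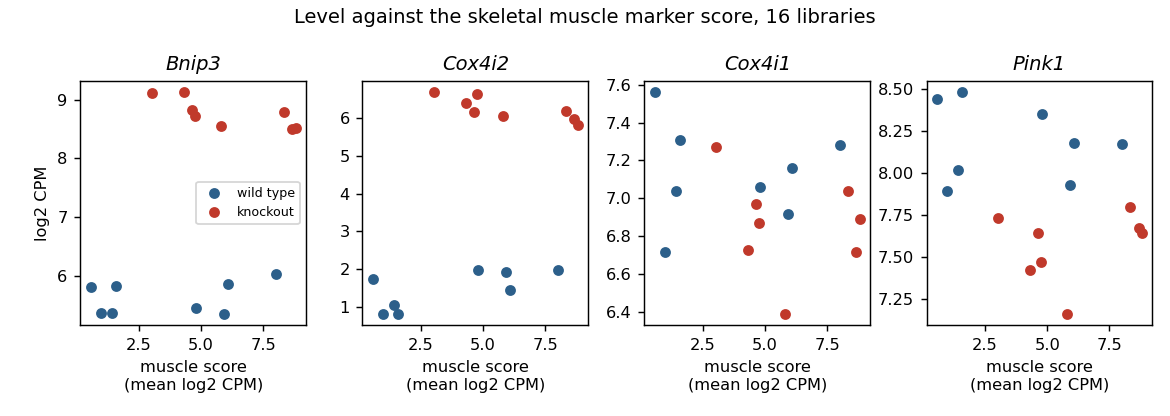
Log2 CPM of Bnip3, Cox4i2, Cox4i1 and Pink1 (vertical axes, each with its own range) against the muscle score, the mean log2 CPM of 15 muscle markers (horizontal axes), in 8 wild type (blue) and 8 knockout (red) libraries. The genotypes are apart for Bnip3, Cox4i2 and Pink1 and overlap for Cox4i1. Wild type scores start at 0.55 and knockout scores at 3.02, so low scores hold wild type libraries only.

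The order of the 9 genes changed between genotypes. In CPM per kilobase of principal transcript the wild type order was Ndufa4l2 (208 ± 38), Cox4i1 (186 ± 33.3), Pink1 (124 ± 19.1), Bnip3l (38.1 ± 4.38), Bnip3 (28.5 ± 5.51), Fundc1 (11.2 ± 1.75), Higd1a (9.55 ± 2.45), Cox4i2 (3.75 ± 1.30) and Mgarp (0.132 ± 0.164). Ndufa4l2 and Cox4i1, and Fundc1 and Higd1a, differed there by less than their spread. In the knockout the order was Ndufa4l2 (539 ± 72.6), Bnip3 (252 ± 45.5), Cox4i1 (154 ± 27.2), Bnip3l (107 ± 19.2), Cox4i2 (105 ± 23.1), Mgarp (80.9 ± 17.9), Pink1 (80.5 ± 10.8), Higd1a (49.1 ± 11.6) and Fundc1 (9.86 ± 1.11). Bnip3l and Cox4i2, and Mgarp and Pink1, could not be ordered beyond their spread. The order depends on the length used: per kilobase of all annotated exons Cox4i1 (75.9 ± 13.4) lay below Cox4i2 (97.7 ± 21.4) and Bnip3l (90.1 ± 16.1) in the knockout, and Pink1 (110 ± 17) above Cox4i1 (91.6 ± 16.5) in the wild type. On either length Pink1 went from the most abundant of the 4 mitophagy genes to below Bnip3 and Bnip3l.

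**Figure D4:**
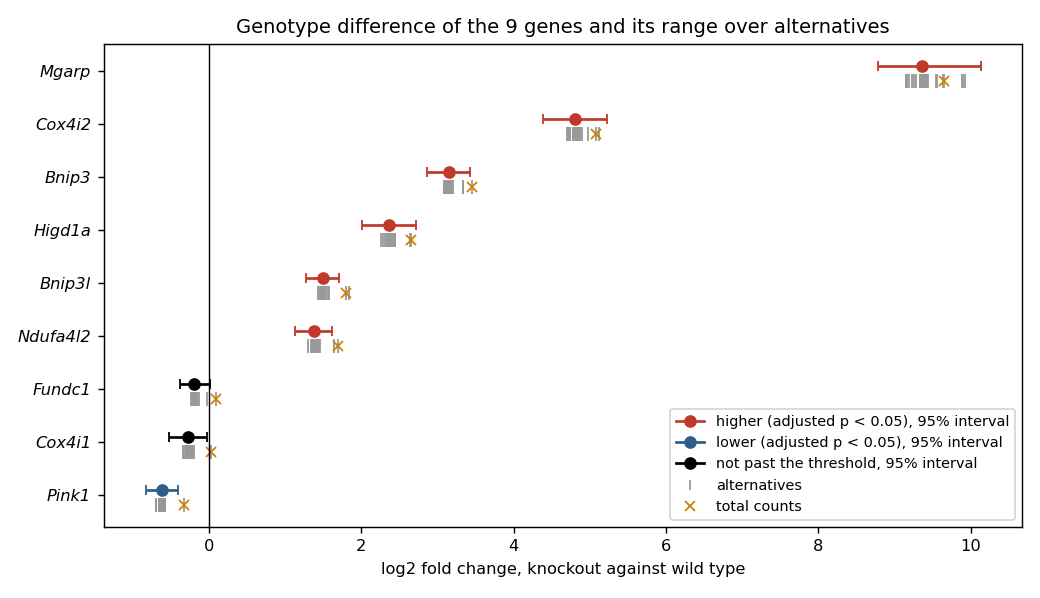
Log2 fold change of the 9 genes, knockout against wild type (horizontal axis), with 95% intervals. Grey ticks are alternative analyses and orange crosses total counts. The 6 higher genes run from 1.38 (Ndufa4l2) to 9.36 (Mgarp), and Fundc1 and Cox4i1 are the genes whose alternatives lie on both sides of 0.

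Most other receptors and adaptors of mitophagy did not pass the threshold. Of 18 other receptors and adaptors, 2 were higher, 3 lower and 13 not past the threshold (27.8% passed), with a median log2 difference of 0.03, beside 48.3% and 0.02 over all tested genes. Bcl2l13, another outer-membrane receptor, rose from 28.6 ± 1.60 to 37.0 ± 3.42 CPM (log2 fold change 0.37, adjusted p = 5.90e-05), and Tbk1, a kinase of autophagy adaptors, rose by 0.22 (adjusted p = 0.0110). Fundc2, the ubiquitin-binding adaptor Tax1bp1 (-0.38, adjusted p = 6.34e-04) and Nipsnap1 (-0.41, adjusted p = 0.0159) were the lower genes. None of these 3 passed with total counts, where 13 of the list were higher and none lower. That scaling called 8270 of all 14803 tested genes higher. Leaving out wild type library 6 or 8 took the count of higher genes to 4.

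Of 6 genes that control or bind BNIP3 and NIX, 1 passed, a share of 16.7% beside 48.3% over all tested genes. Fbxl4, part of the ubiquitin ligase that degrades both receptors, fell from 26.0 ± 1.80 to 22.6 ± 1.61 CPM (log2 fold change -0.20, adjusted p = 0.0116). It was at 0.11 with total counts (adjusted p = 0.239) and did not pass when the muscle score was a covariate. Without wild type library 3 a further gene of the list passed as lower.

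Of 32 genes of the autophagosome 8 were higher, 8 lower and 16 not past the threshold, with a median of -0.04. The share past the threshold, 50%, was near the 48.3% over all tested genes. Ulk1, the kinase that starts autophagosome formation, rose from 41.3 ± 3.15 to 97.6 ± 19.7 CPM (log2 fold change 1.24, adjusted p = 5.96e-09). Atg2b, a lipid transfer protein of the growing membrane, rose by 0.78 (adjusted p = 5.45e-08) and Atg16l1, part of the complex that attaches LC3 to lipid, by 0.39 (adjusted p = 1.05e-05). Map1lc3a fell from 57.3 ± 6.58 to 36.5 ± 5.23 CPM (-0.65, adjusted p = 8.27e-06) and Map1lc3b from 150 ± 30.0 to 110 ± 11 CPM (-0.44, adjusted p = 0.00156). Both encode LC3, a membrane protein that BNIP3 and BNIP3L bind. Of the LC3 relatives on the list, Gabarap (-0.10, adjusted p = 0.373) and Gabarapl1 (-0.07, adjusted p = 0.745) did not pass. Gabarapl2 was lower (-0.31, adjusted p = 0.0159). Map1lc3b missed the threshold with total counts (-0.14, adjusted p = 0.277), while Map1lc3a kept it (-0.34, adjusted p = 0.00349). Tfeb, a transcription factor for lysosomal genes, fell by 0.51 on the log2 scale (adjusted p = 3.63e-06). With total counts 18 genes of the list were higher and 2 lower, beside 8270 higher of all 14803 tested genes.

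Of 14 tested genes for fission, fusion and transport, 5 were higher and 2 lower, a share of 50% beside 48.3% over all tested genes. Beside Trak1, the fission receptor Mief1 (0.23, adjusted p = 0.00119) and the fusion protein Mfn1 (0.23, adjusted p = 0.00320) rose by small amounts. Beside Trak2, the fission protein Fis1 was lower (-0.28, adjusted p = 0.00681) and at 0.02 with total counts. With total counts 11 were higher and 1 lower, beside 8270 higher of all 14803 tested genes.

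**Figure D5:**
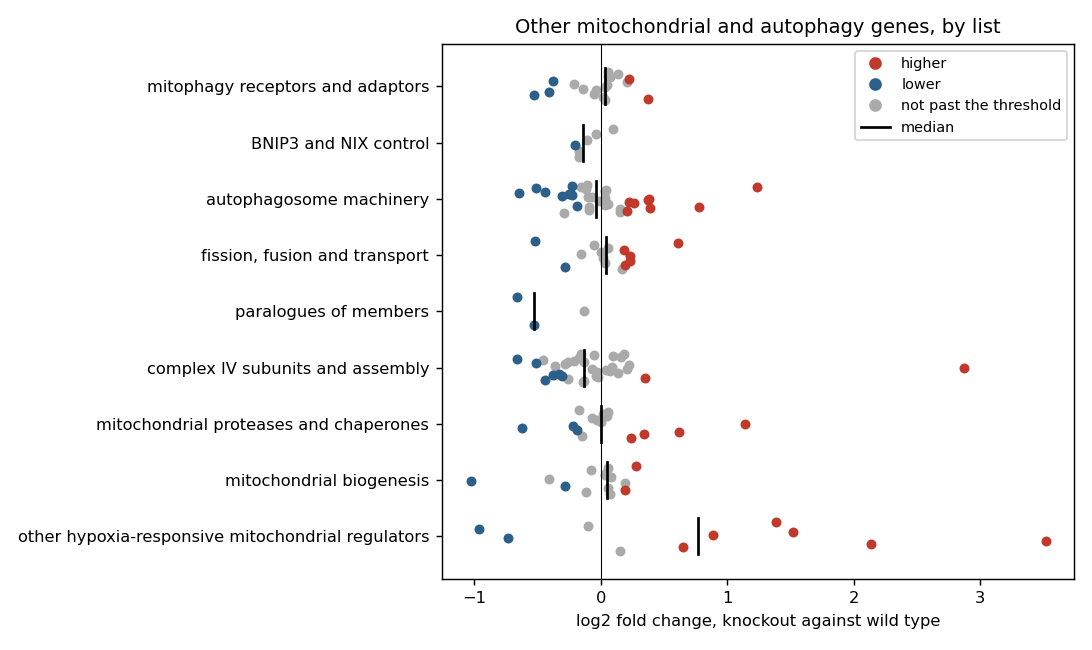
Log2 fold change, knockout against wild type (horizontal axis), of the tested genes of 9 lists, each point 1 gene, red higher, blue lower and grey not past the threshold, with the median of each list as a black line. Medians lie between -0.53 and 0.05 except for the list of other hypoxia-responsive mitochondrial regulators, at 0.77.

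Of 33 other tested subunits and assembly factors of complex IV 2 were higher, 6 lower and 25 not past the threshold, with a median of -0.13. Their share past the threshold was 24.2%, beside 48.3% over all tested genes. The direction depended on the scaling, as it did over all genes. With total counts 14 were higher and none lower, beside 8270 higher of all 14803 tested genes. The largest increase was that of Cox6a2, the muscle form of its subunit, at 16.5 ± 18.2 against 2.27 ± 3.05 CPM (log2 fold change 2.87, SE 0.940, adjusted p = 0.0201), with wide overlap. It lost the threshold in 5 alternatives, one of them without the 2 most muscle-rich libraries of each genotype, and turned to -1.85 with the pericyte and smooth muscle score as a covariate. Cox6a2 was as low as 0.151 CPM in the wild type and needed knockout libraries to pass the filter on low counts. Its place among the 2 higher genes is a description. Cox10, an enzyme of haem synthesis for the complex, was higher by 0.35 (adjusted p = 0.0297) and lost the threshold without knockout library 5 or wild type library 6, 7 or 8. Lower were, among others, Ndufa4, Cox7a2l (-0.51, adjusted p = 5.69e-04) and Coa6 (-0.44, adjusted p = 0.0174), of which Cox7a2l and Coa6 missed the threshold with total counts.

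LONP1 is the matrix protease known to degrade COX4I1, and its transcript rose. Lonp1 was at 38.5 ± 3.66 CPM in wild type libraries and 84.6 ± 8.85 CPM in knockout libraries, without overlap (log2 fold change 1.14, SE 0.0730, adjusted p = 1.66e-10). Of 15 mitochondrial proteases and chaperones 4 were higher and 3 lower, a share of 46.7% beside 48.3% over all tested genes. The matrix chaperone Hspa9 (0.62, adjusted p = 5.72e-07) and Clpx (0.34, adjusted p = 0.00134) were the next largest increases, and Clpx lost the threshold with the pericyte and smooth muscle score as a covariate. The chaperonin partners Hspe1 (-0.62, adjusted p = 3.63e-05) and Hspd1 (-0.19, adjusted p = 0.0453) and the protease Htra2 (-0.22, adjusted p = 0.0146) were lower. With total counts Hspd1 and Htra2 were at 0.11 and 0.08, past the threshold in neither case, and Hspd1 lost the threshold in most alternatives run.

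Of 14 genes of mitochondrial biogenesis 2 were higher, 2 lower and 10 not past the threshold, a share past it of 28.6% beside 48.3% over all tested genes. The coactivator Ppargc1a was low in both groups and fell, from 2.00 ± 0.490 to 0.943 ± 0.557 CPM (log2 fold change -1.03, adjusted p = 0.00643), and Polg2 was lower by 0.28 (adjusted p = 0.0469). Ppargc1a was as low as 0.346 CPM in the knockout and needed wild type libraries to pass the filter on low counts. Its place among the 2 lower genes is a description. Polg2 lost the threshold in most analyses with 1 library left out (knockout library 2, 3, 4, 5, 6 or 7, wild type library 1, 2, 4, 6, 7 or 8) and was at 0.02 with total counts. The mitochondrial helicase Twnk (0.28, adjusted p = 0.00351) and Nrf1 (0.19, adjusted p = 0.00705) were higher, Nrf1 not past the threshold with the pericyte and smooth muscle score as a covariate or without the 2 most muscle-rich libraries of each genotype.

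Of 10 other mitochondrial regulators known to respond to hypoxia 6 were higher, 2 lower and 2 not past the threshold, a share past it of 80% beside 48.3% over all tested genes. Their median was 0.77, beside 0.02. The list was drawn up from genes known to respond to hypoxia, so its direction is no independent evidence. Hk2, the hexokinase that docks on the outer membrane, rose from 10.5 ± 5.74 to 120 ± 9.53 CPM (log2 fold change 3.52, adjusted p = 7.98e-09). Hilpda, an inhibitor of lipid breakdown, rose by 2.14 (adjusted p = 3.00e-10) and Pdk1, the kinase that shuts pyruvate out of mitochondrial oxidation, from 63.2 ± 11.1 to 182 ± 18.6 CPM. Slc25a10, the dicarboxylate carrier, fell by 0.96 (adjusted p = 1.29e-06) and Iscu, the scaffold for iron-sulphur clusters, by 0.73 on the log2 scale (adjusted p = 7.63e-07). Each of these 5 kept its direction and its side of the threshold with total counts. With the pericyte and smooth muscle score as a covariate 6 of this list were called higher and 2 lower. No gene was then called higher among the receptors and adaptors, among the genes for fission, fusion and transport or in complex IV. Calls fell over all 14803 tested genes too, to 4277, of which 2299 were higher, from 7151, of which 3792 were higher.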

How the data were processed

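The deposited files hold raw counts per gene, 1 file per library, per the file headers (matchCounts). The submitters' processing notes name kallisto, featureCounts and GRCm39 without a role or version. Annotation and use of strand are not given in the sources used here. Of 25719 identifiers 25614 matched a symbol. Groups came from the sample titles. The members and gene lists were chosen with earlier results of these data known.

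Counts were tested with edgeR 4.0.16 in R 4.3.3 (quasi-likelihood F test, robust, two-sided, TMM, default expression filter on genotype, 14803 genes tested). SE is the log2 fold change over the root of F. Log2 CPM used a prior count of 2. The fit was checked on simulated data. Transcript lengths and overlaps are from GENCODE M21 (GRCm38), another build than that of the counts. From each list the 3 largest increases and decreases past the threshold were named, and the paralogues of members and the Gabarap genes. Alternatives were DESeq2 1.42.0 (size factors, Wald test), total counts, TMM without the 20 most abundant genes, other filters, limma 3.58.1 (voom), covariates and leaving out libraries. Intervals on counts cover counting error only. The result for 1 listed gene is not reported here.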

Additional observations from a re-analysis of the deposited data

How the results depend on the processing

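The 7 members past the threshold kept direction and side of it in every alternative run, and so did the 5 ratios. Log2 fold changes ran from 3.09 to 3.45 for Bnip3, from 1.43 to 1.84 for Bnip3l, from 4.70 to 5.12 for Cox4i2, from 1.30 to 1.69 for Ndufa4l2, from 2.26 to 2.66 for Higd1a, from 9.15 to 9.93 for Mgarp and from -0.69 to -0.32 for Pink1. Of the 2 others, Cox4i1 lay near the threshold, and Fundc1 passed it in 1 alternative only, the replicate block. Cox4i1 passed it with DESeq2 size factors (-0.28), the DESeq2 Wald test (-0.28) and without the 4 libraries with Scx above 400 CPM (-0.30), and lay between -0.34 and -0.20 with 1 library left out. The cause was not tested. All genes past the threshold numbered 7151, and 4277 with the pericyte and smooth muscle score as a covariate. With total counts 9685 passed, 85.4% of them higher, against 53.0% with TMM.

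Replicate numbers are shared by the genotypes, but same-numbered libraries did not deviate together (correlations from -0.397 to 0.394, and 1 knockout library of 8 correlated best with its own number). With the replicate block 7010 genes passed, Cox4i1 was at -0.27 (adjusted p = 0.0397) and Fundc1 at -0.18 (adjusted p = 0.0247). No other member changed its call with the block.

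With the bases before the start alone the share of promoters with a motif was 38.6%, against 43.8% for the whole window.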

Other observations

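Within each genotype the members varied together only in part. After subtraction of the genotype mean, log2 CPM over the 16 libraries gave a Pearson correlation of 0.83 between Pink1 and Cox4i1, 0.78 between Bnip3 and Bnip3l, 0.61 between Ndufa4l2 and Higd1a and 0.59 between Cox4i2 and Higd1a. Mgarp and Bnip3l were at 0.08 and Pink1 and Ndufa4l2 at -0.27. These values describe 16 libraries that share depth and composition and carry no test. Those of Mgarp, here and below, rest in the wild type on at most 5 counts per library and on the prior count.

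Of 13417 genes with a mean log2 CPM of at least 1, those most like a member by the same measure were never other members among the 3 closest. Bnip3 was closest to Rpl7a (0.89) and Nampt (0.88), Bnip3l to Colec12 (0.92), Pink1 to Mrpl30 and Pdcd5 (both 0.94), Mgarp to Pde1c (0.83), Ndufa4l2 to Kcnk1 (0.94), Cox4i2 to Rraga (0.87), Higd1a to Hist1h1d (0.93), Fundc1 to Ptges3 (0.90) and Cox4i1 to Taf9 (0.96). Between genotypes these neighbours went different ways. Nampt was higher by 1.11 on the log2 scale (edgeR with Benjamini-Hochberg adjustment, adjusted p = 3.93e-08), whereas Kcnk1, close to the raised Ndufa4l2, was lower (-1.54, adjusted p = 2.32e-06). Pde1c was higher by 7.99 at a mean of 20.8 CPM over all libraries, so its wild type level was very low. Like Mgarp it could enter the test only by being higher in the knockout, and its difference is a description. Emc8, whose exons overlap those of Cox4i1, correlated with it at 0.95 and was lower (-0.23, adjusted p = 0.0377).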
